A study of Mus musculus with 16 samples.

Results

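Whole lungs of A/J fetuses were compared with whole lungs of C57BL/6J (B6) fetuses at E14.5 (E stands for embryonic day), using the 8 control libraries of a series of 16. The libraries were taken by their labels alone, 4 from A/J and 4 from B6, and all protein-coding genes that passed a filter on low counts were compared. Between E9.5 and E14.5 the dams of both control groups were fed corn oil, and the design text states that the fetuses were male. The labels name no engineered allele in either inbred strain. The other 8 libraries, 4 per strain, came from dams fed BMS493, an inverse agonist of the retinoic acid receptors, over the same days. They share no library with the controls and serve as further fetuses of the 2 strains. They were also fitted together with the controls, so they shared in the estimate of spread behind every control SE and adjusted p. With only the 8 control libraries in the fit 3707 genes were called, against 2916 with all 16. The title of the series concerns susceptibility to airway hyperresponsiveness, a trait for which adult A/J mice are well known, and the comparison gives the state of the fetal lung in each strain before any disruption of vitamin A signalling. Poly(A) RNA was sequenced. Neither dams nor litters are given in the labels, so p-values measure only the spread between these samples.

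At E14.5 the mouse lung is in its pseudoglandular stage, when epithelial tubes branch into a mesenchyme that surrounds them. Cells at the tips of the tubes remain progenitors, while the stalks turn into conducting airway, and fibroblast growth factor (FGF), Wnt, hedgehog, bone morphogenetic protein (BMP), Notch and retinoic acid signals pass between epithelium, mesenchyme, mesothelium and vessels. Airway smooth muscle, cartilage, an endothelial network and the collagen and elastic matrix are laid down around the branching tubes over the same period.

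Between 17468843 and 23139892 fragments per A/J library and between 15229531 and 24146224 per B6 library were assigned to genes. All 12 pairs of replicates differed by more than counting noise. Multimapping fragments made up 3.98% ± 0.0555 (SD, n = 4) in A/J and 3.21% ± 0.0634 (SD, n = 4) in B6, and mitochondrial transcripts made up 1.28% ± 0.160 and 0.942% ± 0.109 of the assigned counts. The number of genes with a count was 25084 to 25636 in A/J and 23776 to 24814 in B6. All 3 values separated the strains without overlap (exact permutation p = 0.0286, the smallest that 4 against 4 libraries can give, adjusted p = 0.0667 over 7 library values). A/J replicate 4 was the lowest of the A/J libraries in the summed markers of endothelium, epithelium, mesenchyme and cartilage. It was the highest of them in the summed mesothelial markers (236 CPM) and in Wt1, Hmga2 and Lin28b. Of the A/J controls it also had the lowest share of fragments assigned to genes (71.7%) and the highest mitochondrial share (1.46%). Its share of fragments outside any gene was 8.68%, against 4.92% to 6.64%. One BMS493 library, B6 replicate 3, stood apart from the other 15 libraries, with 0.339% of counts mitochondrial against 0.807% to 1.46% and 22809 genes with a count against 23776 to 25636. Results with BMS493 are given without it where they changed. It also entered the estimate of spread behind the control calls, which were refitted without it only when all BMS493 libraries were left out. Defining genes of the lung were present in each library. Nkx2-1, the transcription factor that specifies lung epithelium, stood at 161 to 195 counts per 1000000 (CPM) in A/J and 198 to 219 CPM in B6, and Foxf1, which marks lung mesenchyme, at 187 to 215 and 184 to 214 CPM.

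Of 14155 protein-coding genes tested, 2462 were called between the strains (17.4%), where a call is an adjusted p under 0.05 over all 17276 genes in the quasi-likelihood test of edgeR. They split into 901 higher and 1561 lower in A/J, so 63.4% of these calls were lower in A/J. Over all 17276 genes tested, 2916 were called (16.9%), of which 1216 were higher in A/J (7.04% of those tested) and 1700 lower (9.84%). The median log2 fold change over all tested protein-coding genes was -0.01. All fold changes below are log2 of A/J over B6, so a negative value means a lower level in A/J. Most differences were small, with a median absolute log2 fold change of 0.50 among the calls, 1228 calls under 0.5 and 512 of at least 1 (166 higher and 346 lower). In 2257 of the 2462 calls the CPM of the 4 A/J and the 4 B6 libraries did not overlap, against 3673 of all tested protein-coding genes (25.9%). At the far end, 59 called genes averaged at least 1 CPM in A/J and less in B6, and 126 did so in B6 and not in A/J. Because the tissue is bulk lung, fewer cells of a type and less RNA per cell cannot be told apart in any of these differences.

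Genes known to differ between these inbred strains were examined first. Glo1 (ENSMUSG00000024026, chromosome 17), the glyoxalase that clears methylglyoxal and lies in a duplicated segment in A/J, read 223, 183, 228 and 243 CPM in A/J and 62.8, 61.6, 59.1 and 60.6 CPM in B6. The log2 fold change came to 1.85 (SE 0.08, adjusted p = 4.69e-16). Dysf (ENSMUSG00000033788, chromosome 6), which encodes the membrane repair protein dysferlin and is disrupted in A/J, read 4.68, 5.02, 5.10 and 3.29 CPM in A/J and 37.5, 30.5, 34.6 and 32.1 CPM in B6, for a log2 ratio of -2.88 (SE 0.12, adjusted p = 1.19e-15). Both genes separated the strains without overlap in the direction of the known variant. Hc, the complement C5 gene that is defective in A/J, averaged 0.741 against 1.76 CPM (log2 fold change -1.21 (SE 0.40, adjusted p = 0.035)), and the call was lost without B6 replicate 1 or 4 or without A/J replicate 1, 3 or 4 (adjusted p of up to 0.146). Nnt, the mitochondrial transhydrogenase gene that is partly deleted in B6, had only 61 counts over the 4 A/J libraries and 20 over the 4 B6 libraries. The annotation holds a further entry of the same name at 0 counts that shares 47% of its windows, and the stranded column gave 2 to 9 counts a library, so the level of Nnt is uncertain. The log2 fold change of Nnt came to 1.53 (SE 0.45, adjusted p = 0.02), and the call was lost without A/J replicate 4 or B6 replicate 1, 2 or 4 (adjusted p of up to 0.0709). Naip5, an innate immune sensor that differs between the strains, was not called (-1.14, adjusted p = 0.139), and H2-Ea had too few counts to be tested.

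Many of the largest protein-coding differences were in genes with near-identical copies elsewhere in the genome, for which the level of 1 copy depends on how reads are placed. In A/J, Eno1b stood at 155 to 182 CPM against 2.06 to 4.01 CPM in B6, Hmga1b at 163 to 187 against 4.79 to 5.54 CPM, and Eif3j2 at 27.9 to 39.7 against 2.03 to 3.18 CPM. Their log2 fold changes were 5.78, 5.15 and 3.58 (adjusted p of at most 6.15e-15). Among lower genes, the ribosomal protein genes Rpl26, Rpl29 and Rps3a1 had log2 fold changes of -4.46, -2.87 and -2.20, and Rpl29 summed with the 9 genes that share its windows stood at -2.05. Rpl35a, with 6.36% of its windows shared, was at -1.96. Of 1261 tested genes with at least 20% of their 50-base transcript windows shared with another gene, 18.2% were called, against 17.3% of the remaining 12893. Past an absolute log2 fold change of 1, however, the shares were 5.79% and 3.40%.

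Coding sequences of 2 such pairs are shown because they carry the differences between a gene and its copy that a read must cover in order to be placed. Capitals mark the bases at which the gene and its copy differ in the 60 bases shown, read from transcripts of the GRCm38 annotation GENCODE M21. Rpl26 (chromosome 11, coding positions 147 to 206) and the processed pseudogene Gm15772 (chromosome 5) differed at 2 of 435 aligned coding bases, 1 of them in this window.
Rpl26: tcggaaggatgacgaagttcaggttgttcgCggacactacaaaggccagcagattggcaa
Gm15772: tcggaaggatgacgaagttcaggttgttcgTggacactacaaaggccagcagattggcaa
Rps3a1 (chromosome 3, coding positions 201 to 260) and its copy Rps3a3 (chromosome 13) differed at 8 of 791 aligned bases, 2 of them in this window.
Rps3a1: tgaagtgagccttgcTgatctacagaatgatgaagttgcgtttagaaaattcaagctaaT
Rps3a3: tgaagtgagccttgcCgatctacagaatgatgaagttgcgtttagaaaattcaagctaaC

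In B6, nearly all counts of each pair fell on the parent gene, with 479.8 ± 33.4 CPM on Rpl26 and 9.70 ± 0.353 CPM on Gm15772 (SD, n = 4). In A/J the order was turned, with 21.8 ± 9.11 CPM on Rpl26 and 277 ± 9.16 CPM on Gm15772. The log2 ratio of the summed means was -0.71. Rps3a1 went from 1085 ± 30.1 CPM in B6 to 237 ± 33.8 CPM in A/J while Rps3a3 went from 3.04 ± 0.619 to 403 ± 24.8 CPM, and the log2 ratio of their sum was -0.77. Eno1 with Eno1b summed to a log2 ratio of -0.18, Hmga1 with Hmga1b to 0.31 and Eif3j1 with Eif3j2 to 0.02. These 6 pairs, with Hba-a1 and Hba-a2 described among the globins, were chosen after their values were seen. Of the 73 calls past 1 with shared windows, 67 had a partner that could be summed. For 44 of these the summed log2 ratio was under 1, for 29 it was under 0.5, and the median absolute value went from 2.00 for the gene to 0.62 for the sum. Single-gene values of such families are uncertain.

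**Figure D1:**
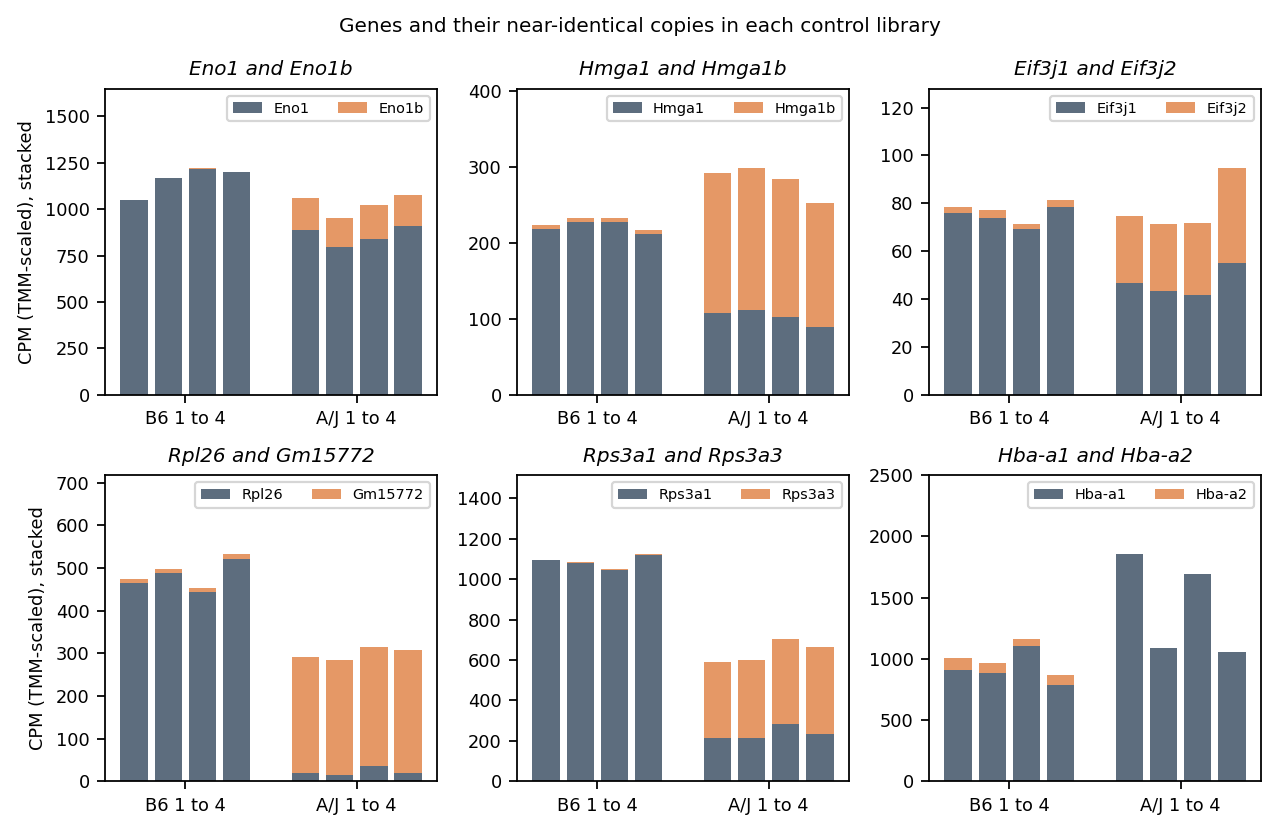
CPM of 6 genes (grey) and their near-identical copies (orange), stacked, for each of the 4 B6 and 4 A/J control libraries. In A/J libraries the copies Eno1b, Hmga1b, Eif3j2, Gm15772 and Rps3a3 are visible in the bar and close to absent in B6, while Hba-a2 is visible in B6 and close to absent in A/J.

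The other genes with the largest differences at 1 CPM or more in both strains were of several kinds. Col4a6, a basement membrane collagen chain, Mgp, the matrix Gla protein that inhibits calcification, and Dysf were lower in A/J, and so were the meiotic cohesin gene Rec8 (2.56 against 23.3 CPM, -3.19) and the protease inhibitor A2m (2.35 against 17.9 CPM, -2.95). Mgp (ENSMUSG00000030218, chromosome 6) read 20.7, 16.6, 17.9 and 15.3 CPM in A/J and 138, 149.9, 125 and 151 CPM in B6, so that each A/J library lay far below every B6 library. The log2 fold change came to -3.0 (SE 0.11, adjusted p = 2.07e-15). Higher in A/J were the retinol esterifying enzyme Lrat, the cytokine-like factor Cytl1 (33.2 against 7.79 CPM, 2.10), the G protein regulator Rgs4 (16.5 against 3.96 CPM, 2.07), the endosomal adaptor Wdfy1 (44.9 against 11.4 CPM, 1.98) and the interferon-inducible DNA sensor Ifi204 (10.04 against 1.64 CPM, 2.59, 20% of its windows shared). Among them the adjusted p reached at most 1.34e-06. Among abundant genes, with a mean of at least 50 CPM, the ferlin Myof (41.4 ± 3.42 against 167 ± 7.98 CPM, SD, n = 4, -2.01) and the chromatin protein Hmgn2 (159 against 635 CPM, -1.999, 25% of its windows shared, -1.20 when summed with its copy) were lower. The heme synthesis enzyme Alad (123 against 46.9 CPM, 1.39), the tubulin Tuba1c (1.32, 53% of windows shared, 0.13 when summed with the 10 genes that share them) and the adhesion receptor Adgrb2 (1.11) were higher.

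The counts of some genes fell almost only in 1 strain. Sycp1, a component of the meiotic synaptonemal complex, had 424 counts over the A/J libraries and none in B6. Cps1, the carbamoyl phosphate synthetase of the urea cycle, had 531 counts in B6 and none in A/J, and the claudin-like Cldn34c1 had 374 and none. Gm8909, a gene related to class I histocompatibility genes, had 2680 counts in B6 and 3 in A/J. Ifi202b, of the same interferon-inducible family as Ifi204, had 93 counts in A/J and 1 in B6, and Gm12666 had 385 and 5. Gm12666 shares 52% of its windows with Larp7, and their sum averaged 93.5 CPM in A/J and 90.0 CPM in B6. The value of Gm12666 alone is therefore uncertain. Gm8909 shares 26% of its windows with Gm20478, and their sum averaged 0.083 CPM in A/J and 37.2 CPM in B6. Fitted fold changes of such genes depend on the prior count, so none are given.

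Cell type markers were read next, as 19 lists of genes that mark the cells of the lung and of neighbouring tissues. Of 21 tested genes of blood vessel endothelium 12 were called, all lower in A/J, where 9.84% of all tested genes were called lower, and the median log2 fold change was -0.37. With only the 8 control libraries in the fit 19 were called, all lower, and with the stranded column 9. Calls over all genes moved in the same way in these fits. The first called 3707 of 16385 tested genes, 2117 of them lower, and the second 2376 of 17124, 1350 of them lower. Counts from the fit of the 8 control libraries in the lists below are to be read beside its larger number of calls. The median was -0.27 within the libraries numbered 1 to 8 and -0.43 within those numbered 9 to 16, and without A/J replicate 4 it was -0.32 with 9 genes called. Summed over the list, endothelial markers stood at 1588 to 1888 CPM in A/J and 2177 to 2370 CPM in B6, with no overlap. Called members included junction and surface proteins, receptors and transcription factors.

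Cdh5 (ENSMUSG00000031871, chromosome 8), the VE-cadherin that joins endothelial cells, read 315, 298, 268 and 237 CPM in A/J and 378, 348, 389 and 367 CPM in B6. All 4 A/J libraries were below all 4 B6 libraries, for a log2 ratio of -0.41 (SE 0.10, adjusted p = 0.00738). Pecam1, an adhesion molecule of endothelial junctions, averaged 182 ± 14.6 against 236 ± 4.42 CPM (SD, n = 4, -0.38 (SE 0.08, adjusted p = 0.00101)). Aplnr, the apelin receptor of sprouting vessels, read 175, 157, 172 and 155 CPM in A/J and 256, 236, 283 and 262 CPM in B6, and at -0.66 (SE 0.09, adjusted p = 5.12e-06) it had the greatest difference of the called members. The angiopoietin receptor genes Tie1 (152 against 204 CPM, -0.42, adjusted p = 0.00394) and Tek (-0.38, adjusted p = 0.0022) were both lower. The same direction was called for the transcription factor genes Sox7 (-0.51), Sox18 (-0.31) and Erg (-0.30), and for Esam (-0.45), Emcn (-0.37), Robo4 (-0.36) and Egfl7 (-0.27). The calls of Sox18 and Emcn were lost without B6 replicate 1 or 3 or A/J replicate 4 (adjusted p of up to 0.109), those of Erg, Emcn and Egfl7 with the stranded column, and that of Egfl7 also without any 1 of 6 libraries, all but A/J replicate 3 and B6 replicate 3 (adjusted p of up to 0.148). None of the 3 arterial genes tested was called. In the BMS493 libraries 16 of the 21 were called, all lower in A/J, where 13.5% of protein-coding genes were called lower.

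Of 6 lymphatic endothelial genes tested 1 was called higher in A/J and 1 lower, at a median of -0.16, where 7.04% of all tested genes were called higher and 9.84% lower. The summed markers were lower in A/J without overlap, at 204 to 224 CPM against 237 to 261 CPM in B6. Its master regulator Prox1 averaged 8.71 and 8.91 CPM (-0.03, adjusted p = 0.914) and the hyaluronan receptor gene Lyve1 54.1 and 53.1 CPM (0.03, adjusted p = 0.914). Reln, a secreted glycoprotein of lymphatic vessels, was higher in A/J (11.1 against 5.98 CPM, 0.91 (SE 0.17, adjusted p = 0.000303)). Flt4, the receptor for VEGF-C, was lower (-0.31 (SE 0.08, adjusted p = 0.0101)), and that call was lost without B6 replicate 3 (-0.25, adjusted p = 0.0563).

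Of 13 general epithelial genes 5 were called, all lower, where 9.84% of all tested genes were called lower, and the median was -0.25. Without A/J replicate 4 the number was 4, and with only the 8 control libraries 8. The summed markers stood at 1059 to 1277 CPM in A/J and 1386 to 1440 CPM in B6. Krt18, a keratin of simple epithelia, read 34.6, 41.6, 46.2 and 30.5 CPM in A/J and 66.5, 68.3, 61.6 and 72.8 CPM in B6 without overlap (-0.81 (SE 0.13, adjusted p = 0.000132)). Its partner keratin Krt8 averaged 85.8 against 122 CPM (-0.51 (SE 0.12, adjusted p = 0.00852)), the tight junction gene Cldn7 28.1 against 38.4 CPM (-0.45 (SE 0.09, adjusted p = 0.000848)) and the epithelial adhesion gene Epcam 177 against 209 CPM (-0.24 (SE 0.06, adjusted p = 0.00793)). Cdh1, the E-cadherin gene, was not called (-0.25, adjusted p = 0.248). None of the 5 epithelial regulators was called, and their median was -0.14.

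Genes of the distal tip and of alveolar fate were read apart, and no difference between them was tested. The tip genes Sox9 (108 ± 9.12 against 86.8 ± 18.4 CPM, SD, n = 4), Id2 (117 ± 12.4 against 107 ± 18.6 CPM) and Etv5 (434 against 405 CPM) had log2 fold changes of 0.32, 0.13 and 0.10, and none was called (adjusted p = 0.0951, 0.54 and 0.337). The 12 alveolar genes had a median of -0.57 with 2 called, both lower in A/J. That share is close to the 17.4% of protein-coding genes called in either direction, while 9.84% of all tested genes were called lower. Over the 15 distal genes the median was -0.46, and without A/J replicate 4 it was -0.17 with 1 call. With only the 8 control libraries 6 were called, all lower. Sftpc (ENSMUSG00000022097, chromosome 14), the surfactant protein C gene and the earliest of the surfactant genes in distal epithelium, read 92.4, 77.8, 101 and 53.5 CPM in A/J and 286, 248, 249 and 341 CPM in B6. The highest A/J library was below the lowest B6 library by a wide margin, and the log2 fold change came to -1.79 (SE 0.41, adjusted p = 0.00857).

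Lamp3, a lysosomal membrane protein of lamellar bodies, averaged 3.24 against 6.24 CPM (-0.94 (SE 0.27, adjusted p = 0.0211)), and its call was lost without A/J replicate 2, 3 or 4 or B6 replicate 3 (adjusted p of up to 0.0684). The type 1 cell genes Ager (15.6 against 28 CPM, -0.83, adjusted p = 0.081) and Cldn18 (82.8 against 126 CPM, -0.60, adjusted p = 0.0991) were not called, nor were Sftpb (-0.24) and Abca3 (-0.04). In the BMS493 fetuses 8 of the 15 distal genes were called, all lower in A/J (13.5% of protein-coding genes were), with a median of -0.94. Sftpc was -2.47 there (adjusted p = 0.000955), with wide spread in B6 (481 ± 310.5 CPM, SD, n = 4), and -2.37 (adjusted p = 0.00289) without B6 replicate 3.

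Regulators and products of the airway epithelium were read apart. Sox2, which specifies the conducting airway, was not called (20.9 against 22.6 CPM, -0.11, adjusted p = 0.583), and the 4 regulators tested had no call. Of 5 product genes 2 were called, both lower in A/J (9.84% of all tested genes were). Scgb3a2 (ENSMUSG00000038791, chromosome 18), the secretoglobin of early airway secretory cells, read 1.59, 1.52, 3.32 and 1.02 CPM in A/J and 16.8, 13.4, 12.9 and 15.2 CPM in B6 (-2.94 (SE 0.49, adjusted p = 0.000944)). Cyp2f2, a club cell cytochrome P450, averaged 0.162 against 2.21 CPM (-3.67 (SE 0.64, adjusted p = 0.000273)) from 14 and 170 counts. The A/J values of both genes were below every B6 value. Scgb1a1, the mature club cell secretoglobin, was below the filter in both strains. Among neuroendocrine genes, Insm1 was not called (-0.92, adjusted p = 0.073). Neurod1 and Resp18 had no counts in any of the 8 libraries.

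Of 12 mesenchymal identity genes 2 were called, both lower in A/J, and the median log2 fold change was 0.02. That share is close to the 17.4% of protein-coding genes called in either direction, while 9.84% of all tested genes were called lower. Tbx4 and Tbx5, T-box factors of lung mesenchyme, averaged 254 against 241 CPM and 171 against 171 CPM (0.07 and 0.00, adjusted p = 0.509 and 0.99). Lower in A/J were Tcf21, a bHLH factor of fibroblast progenitors (94.7, 96.3, 99.1 and 83.1 CPM against 122, 118, 114 and 121 CPM, -0.35 (SE 0.08, adjusted p = 0.00227)), and the homeobox gene Meox2 (43.2 against 60.4 CPM, -0.48 (SE 0.07, adjusted p = 9.71e-06)).

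Smooth muscle genes had a median of 0.01, with 2 of 14 called higher and 1 lower, not far from the 17.4% called among all protein-coding genes. Acta2, the smooth muscle actin gene, read 489, 449.5, 490.1 and 405 CPM in A/J and 590.2, 594, 556 and 592 CPM in B6 and was lower in A/J (-0.35 (SE 0.07, adjusted p = 0.00106)). Actg2, the enteric actin isoform, read 137, 142, 138 and 116 CPM and 103, 108, 103 and 104 CPM and was higher (0.35 (SE 0.06, adjusted p = 0.000208)). Neither gene overlapped between the strains. Cald1, the actin-binding caldesmon, was higher (0.21 (SE 0.06, adjusted p = 0.0235)), a call lost without any 1 of 6 libraries, all but A/J replicate 3 and B6 replicate 3 (adjusted p of up to 0.0612). Myh11, the smooth muscle myosin heavy chain, averaged 297 and 296 CPM (0.01, adjusted p = 0.976), and Cnn1, Des and Myocd were not called. Tagln was not tested, having 3 to 11 counts a library without regard to strand and 721 to 1461 in the stranded column.

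Mesothelium, the outer lining of the lung, gave 3 calls higher in A/J and 1 lower of 10, at a median of 0.36, beside 7.04% higher and 9.84% lower of all tested genes. The summed markers stood at 202 to 236 CPM in A/J and 177 to 185 CPM in B6. Wt1 (ENSMUSG00000016458, chromosome 2), the defining transcription factor of fetal mesothelium, read 18.5, 15.6, 16.5 and 21.3 CPM in A/J and 10.8, 10.1, 11.4 and 10.5 CPM in B6 (0.74 (SE 0.16, adjusted p = 0.00179)), with every A/J library above every B6 library. Bnc1, a zinc finger gene of mesothelium, averaged 7.28 against 4.62 CPM (0.64 (SE 0.21, adjusted p = 0.0319)), and this call was lost without A/J replicate 1 or 4 or B6 replicate 3 or 4 (adjusted p of up to 0.106). Upk1b, a uroplakin, was lower in A/J (4.24 against 9.45 CPM, -1.16 (SE 0.15, adjusted p = 2.3e-06)), and Upk3b was not called (0.15, adjusted p = 0.374). Without A/J replicate 1 or B6 replicate 3 only 1 higher call was left, and with only the 8 control libraries there were 5. The BMS493 fetuses gave 5 higher and 2 lower, where 7.83% of protein-coding genes were called higher, and 2 higher and 2 lower without B6 replicate 3.

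Resident immune cells differed in single genes. Of 15 macrophage genes 11 had a negative fold change, the median was -0.22, and 1 was called in each direction, no larger a share than the 16.9% of all tested genes. C1qb, a complement component, was lower in A/J (9.49 against 12.4 CPM, -0.39 (SE 0.13, adjusted p = 0.0423)), a call lost under 10 of 18 alternatives (adjusted p of up to 0.143). In a fit of only the 8 control libraries 5 macrophage genes were lower. Mrc1, the mannose receptor, was higher. It read 57.1, 50.2, 50.6 and 59.5 CPM in A/J and 36.6, 31.6, 36.7 and 31.8 CPM in B6 (0.67 (SE 0.09, adjusted p = 3.03e-06)), while the lineage genes Csf1r (28.3 against 33.4 CPM, -0.24, adjusted p = 0.117) and Spi1 (-0.08, adjusted p = 0.806) were not called. Summed macrophage markers overlapped, at 209 to 223 CPM in A/J and 207 to 234 CPM in B6. Kit, the stem cell factor receptor and the most abundant gene of the mast cell list, was lower in A/J (62.9 against 90.02 CPM, -0.51 (SE 0.12, adjusted p = 0.00366)). The mast cell protease genes Cpa3 (-0.42, adjusted p = 0.348) and Cma1 (-0.88, adjusted p = 0.108) were not called, and Fcer1a had no counts in any library.

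Globin genes differed one from another. Hbb-y, an embryonic beta-like globin, read 807, 489, 658 and 733 CPM in A/J and 333, 352, 363 and 281 CPM in B6 without overlap (1.01 (SE 0.28, adjusted p = 0.0251)). The call was lost without A/J replicate 1 or 4 or B6 replicate 1, 2 or 4 (adjusted p of up to 0.0741). Hbb-bh1, an embryonic globin too, averaged 5.43 ± 1.17 against 2.73 ± 0.463 CPM (SD, n = 4, 0.97 (SE 0.25, adjusted p = 0.00653)). The embryonic alpha-like Hba-x (0.42, adjusted p = 0.118) and the adult Hbb-bs (831 against 811 CPM, 0.03, adjusted p = 0.966) were not called. Hba-a2 read 61.3 to 96.7 CPM in B6 and at most 0.338 CPM in A/J, but 89% of its windows are shared, and with its copy Hba-a1 the log2 ratio of the summed means was 0.51. Summed erythroid markers overlapped, at 2342 to 3928 CPM in A/J and 2040 to 2738 CPM in B6. Gata1, the erythroid transcription factor, was lower at 0.440 against 1.07 CPM (-1.29 (SE 0.40, adjusted p = 0.0257)), a call lost without A/J replicate 2 or 3 or B6 replicate 1 or 2 (adjusted p of up to 0.0877).

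Neural and glial genes of the lung's intrinsic nerves had a median of 0.45 with 2 calls in each direction of 14, where 7.04% of all tested genes were called higher and 9.84% lower. Uchl1, a neuronal and neuroendocrine deubiquitinase gene, read 14.9, 17.1, 19.6 and 15.5 CPM in A/J and 30.2, 31.3, 30.3 and 29.2 CPM in B6 (-0.85 (SE 0.10, adjusted p = 2.93e-07)), and the receptor gene Ret was lower as well (11.3 against 17.3 CPM, -0.62 (SE 0.13, adjusted p = 0.000984)). Sox10, the neural crest glia factor, was not called (0.73, adjusted p = 0.122).

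Cartilage of the developing airway rings gave 3 lower calls and 1 higher of 13, at a median of -0.14, beside 9.84% lower and 7.04% higher of all tested genes. The higher call was Sox5, a chondrocyte transcription factor (0.35 (SE 0.09, adjusted p = 0.011)), and it was lost without B6 replicate 1 (adjusted p = 0.0515). Cnmd, the cartilage angiogenesis inhibitor chondromodulin (2.004 against 5.56 CPM, -1.46 (SE 0.18, adjusted p = 9.69e-07)), Hapln1, the link protein that binds hyaluronan to aggrecan (50.5 against 89.5 CPM, -0.83 (SE 0.10, adjusted p = 2.05e-06)), and the matrilin gene Matn4 (22.1 against 37.3 CPM, -0.75 (SE 0.19, adjusted p = 0.0108)) were lower. Col2a1, the main cartilage collagen, averaged 107 ± 11.7 against 101 ± 8.48 CPM (SD, n = 4) and was not called (0.08, adjusted p = 0.816).

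Markers of tissues next to the lung were low but not equal. Summed heart markers stood at 43.2 to 80.4 CPM in A/J and 79.9 to 94.5 CPM in B6, with Nppa at 0 in all 8 libraries and Tnnt2 at 2.12 against 6.04 CPM (-1.50 (SE 0.35, adjusted p = 0.00596)). Liver markers stood at 1.93 to 2.37 CPM in A/J and 2.16 to 13.7 CPM in B6, where replicate 1 held the highest value and 5.21 CPM of Alb. Thyroid and oesophagus markers summed to 0.501 to 0.965 CPM in A/J and 1.58 to 2.49 CPM in B6, skeletal muscle markers to 2.50 to 3.85 and 4.20 to 6.45 CPM, and thymus markers to 3.12 to 6.32 and 3.46 to 4.75 CPM, with Cd3e at 0. The part of these tissues in the differences above was not tested.

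**Figure D2:**
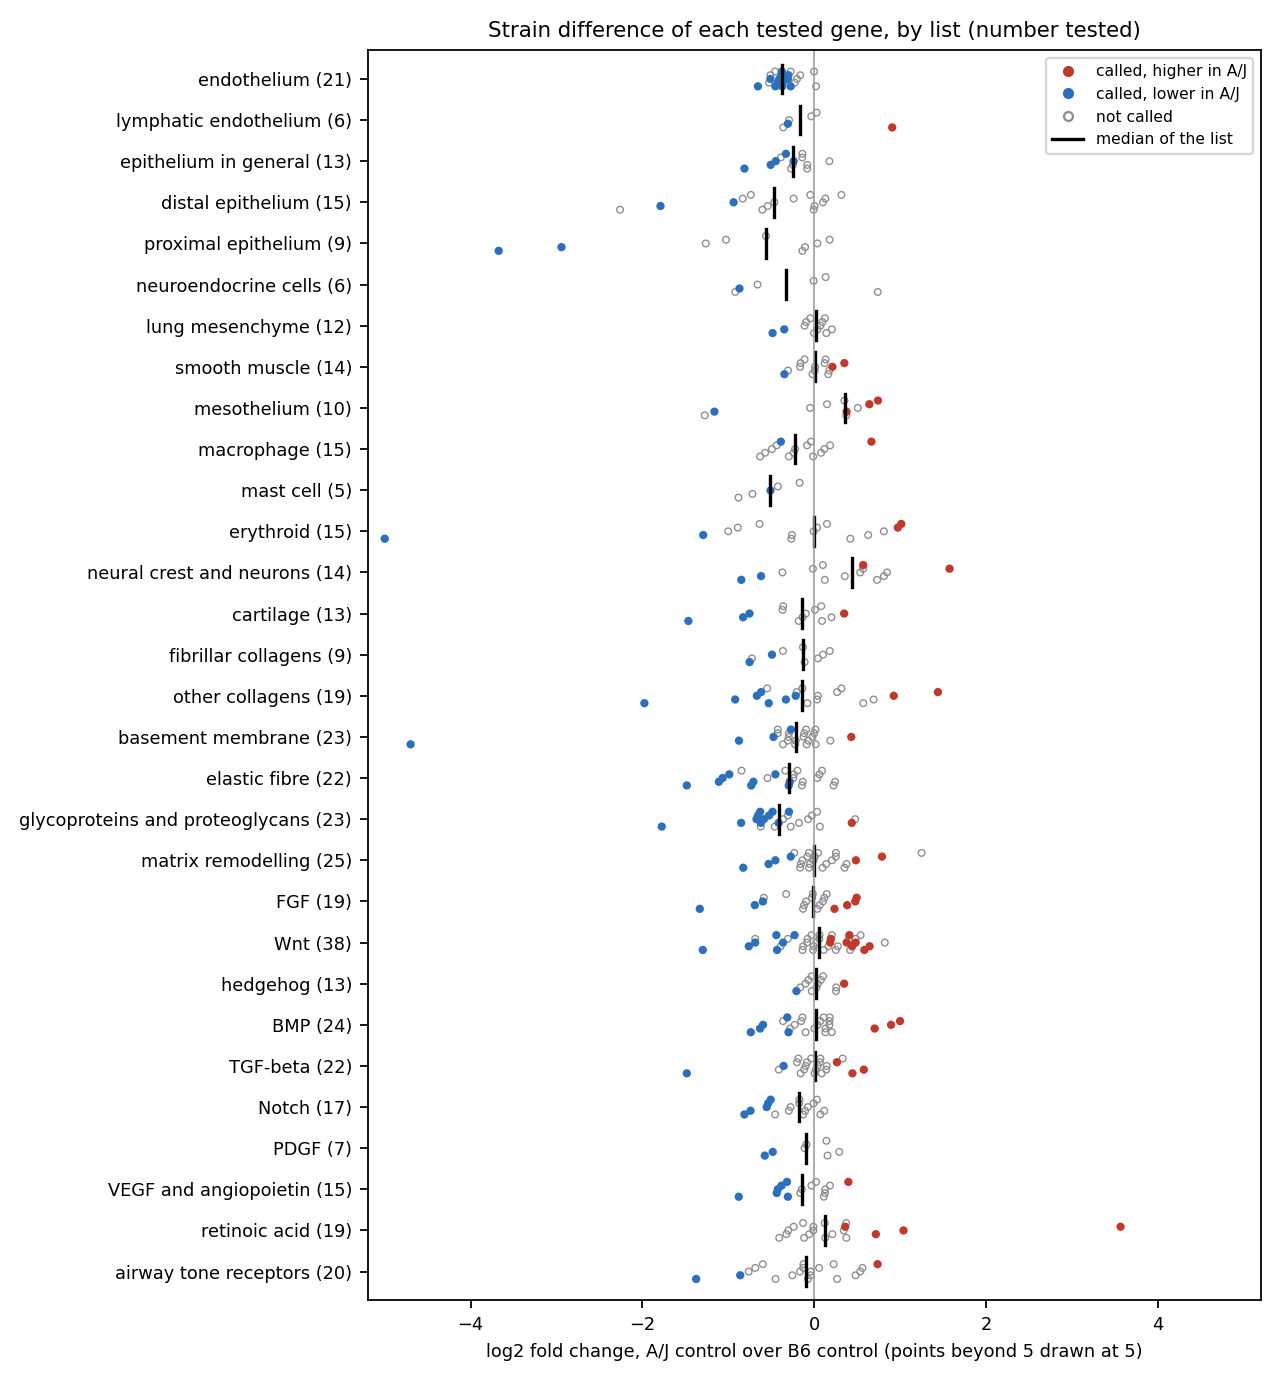
Log2 fold change of A/J over B6 control lungs for each tested gene (points) in the lists of cell types, matrix and signalling, with red for genes called higher in A/J, blue for genes called lower, open points for genes not called and a bar at the median of each list. Endothelium lies to the left as a block at a median of -0.37, mesothelium has a median of 0.36, and the Wnt list spreads to both sides around 0.06.

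**Figure D3:**
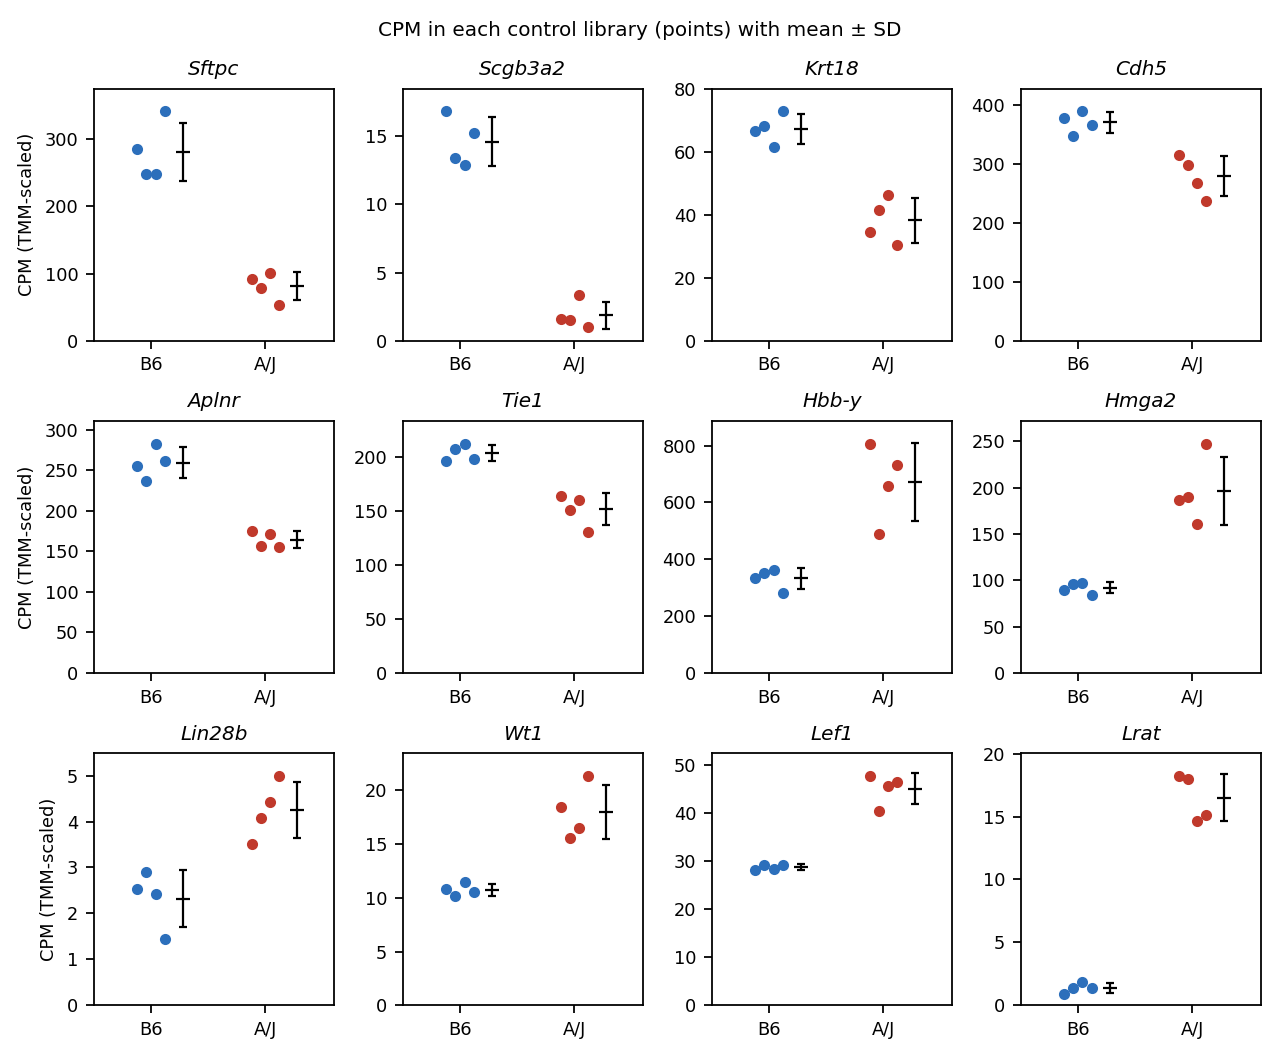
CPM of 12 genes in each of the 4 B6 (blue) and 4 A/J (red) control libraries, with the mean ± SD beside each group. Sftpc, Scgb3a2, Krt18, Cdh5, Aplnr and Tie1 are lower in every A/J library, and Hbb-y, Hmga2, Lin28b, Wt1, Lef1 and Lrat are higher.

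In each of 6 lists of extracellular matrix genes more members were called lower than higher in A/J, where 9.84% of all tested genes were called lower and 7.04% higher. Fibrillar collagens, the main tensile fibres, had 2 of 9 called, both lower, at a median of -0.13. Col1a1, the type I chain, read 2102, 1950.0, 1933 and 1406 CPM in A/J and 3212, 3031, 3161 and 3047 CPM in B6 (-0.75 (SE 0.22, adjusted p = 0.0308)), and Col3a1 read 2189, 2079, 2165 and 1758 and 2933, 2882, 2842 and 2859 CPM (-0.49 (SE 0.15, adjusted p = 0.0307)). The strains did not overlap in either gene, and A/J replicate 4 was the lowest library in both. Both calls were lost without any 1 of the 4 B6 libraries or without A/J replicate 2 or 4, and that of Col1a1 also without A/J replicate 3. Without A/J replicate 4 the values were -0.64 (adjusted p = 0.0921) and -0.42 (adjusted p = 0.105).

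Among other collagens 7 of 19 were lower and 2 higher, at a median of -0.14, and without A/J replicate 4 the count was 5 lower and 2 higher at a median of -0.02. Col16a1, which links fibrils to their surroundings, was lower (87.7 against 166 CPM, -0.92 (SE 0.18, adjusted p = 0.00267)), as were the paired chains of microfibrillar collagen VI, Col6a1 (-0.67, adjusted p = 0.000204) and Col6a2 (-0.62, adjusted p = 0.00077). A further chain of the same collagen type, Col6a6, went the other way, with 33.6, 31.9, 27.3 and 27.5 CPM in A/J and 12.5, 9.01, 11.6 and 11.4 CPM in B6 (1.44 (SE 0.12, adjusted p = 5.27e-10)). Col26a1 was higher too (74.6 against 39.2 CPM, 0.93 (SE 0.18, adjusted p = 0.00235)), and Col28a1 was lower at 0.560 against 2.25 CPM (-1.98 (SE 0.39, adjusted p = 0.000716)).

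Basement membrane genes gave 4 lower and 1 higher of 23, at a median of -0.21. The number lower was 3 without A/J replicate 4 and 10 with only the 8 control libraries. Col4a6 (ENSMUSG00000031273, chromosome X), a chain of type IV collagen, read 2.31, 2.38, 1.96 and 1.53 CPM in A/J and 53.3, 53.04, 60.1 and 48.7 CPM in B6, which made it the lowest gene in A/J among those at 1 CPM or more in both strains (-4.70 (SE 0.14, adjusted p = 4.28e-19)). Its value in the BMS493 fetuses was -4.56. Col15a1, which bridges basement membranes and fibrils, was lower (90.1 against 165 CPM, -0.88 (SE 0.12, adjusted p = 2.65e-05)), and so was the linker Nid1 (408 against 566 CPM, -0.47 (SE 0.09, adjusted p = 0.000362)). Lama1, the embryonic laminin alpha chain, was higher (59.9 against 44.4 CPM, 0.43 (SE 0.09, adjusted p = 0.00105)) while Lama4, the chain of vessel basement membranes, was lower (-0.27, adjusted p = 0.0194), a call lost without A/J replicate 3 or 4 or B6 replicate 1 or 3 (adjusted p of up to 0.0854).

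Elastic fibre genes were called lower in 9 of 22 cases and higher in none, at a median of -0.29. The number lower was 7 without A/J replicate 4, and with only the 8 control libraries 14 lower and 1 higher. Lox (ENSMUSG00000024529, chromosome 18), the lysyl oxidase that crosslinks elastin and collagen, read 218, 231, 235 and 226 CPM in A/J and 489.9, 462, 494 and 516 CPM in B6 (-1.11 (SE 0.08, adjusted p = 3.74e-10)). The A/J libraries lay within a narrow range at less than any B6 library. Ltbp2, which binds elastic microfibrils, averaged 12.6 ± 3.28 against 35.6 ± 2.88 CPM (SD, n = 4, -1.48 (SE 0.35, adjusted p = 0.0106)). Of the 5 fibulins 4 were lower, among them Efemp1 (3.22 against 6.75 CPM, -1.07 (SE 0.25, adjusted p = 0.00397)) and Fbln5, which guides elastin assembly (41.97 against 68.7 CPM, -0.71 (SE 0.17, adjusted p = 0.00875)). Mfap4, a microfibril protein, was lower at -0.73 (SE 0.20, adjusted p = 0.0224), a call lost without A/J replicate 2 or 4 or B6 replicate 1 (adjusted p of up to 0.0726). None of the 3 core genes was called, and Eln itself averaged 533 against 958 CPM (-0.85, adjusted p = 0.0768).

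Glycoproteins and proteoglycans gave 11 lower and 1 higher of 23, at a median of -0.41. Without A/J replicate 4 the count was 7 lower and 2 higher. Of 8 proteoglycans 6 were called lower, all of them small leucine-rich proteoglycans that bind collagen fibrils or their surroundings. Aspn read 2.89, 4.63, 2.37 and 2.61 CPM in A/J and 11.03, 11.6, 9.30 and 11.2 CPM in B6 (-1.77 (SE 0.39, adjusted p = 0.00559)), and Ogn averaged 46.3 against 83.5 CPM (-0.85 (SE 0.10, adjusted p = 1.3e-06)). Bgn (-0.63), Prelp (-0.59) and Fmod (-0.53) followed, and the call of Prelp was lost without A/J replicate 3 or 4 or B6 replicate 1, 2 or 4 (adjusted p of up to 0.0852). Dcn, decorin, was -0.62 (SE 0.09, adjusted p = 9.51e-06) in controls and -0.08 (adjusted p = 0.576) in the BMS493 fetuses. These 2 values were not called to differ. Sparc, a collagen-binding protein, was lower as well (904 against 1204 CPM, -0.41, adjusted p = 0.000714), and the thrombospondin Thbs2 was higher (0.44, adjusted p = 0.00587).

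Of 25 genes of matrix remodelling, 4 were lower and 2 higher. There were 4 lower and 4 higher without A/J replicate 3 or with only the 8 control libraries. The procollagen N-proteinase Adamts2 averaged 28.6 against 50.8 CPM (-0.83 (SE 0.11, adjusted p = 5.04e-06)), and the microfibril-binding Adamts10 139 against 200.5 CPM (-0.53 (SE 0.07, adjusted p = 4.19e-06)). Adamts15, which cleaves versican and aggrecan, was higher in A/J (45.8 against 26.5 CPM, 0.79 (SE 0.18, adjusted p = 0.00608)). The tissue inhibitor gene Timp3 was higher as well (129.9 against 92.8 CPM, 0.49 (SE 0.09, adjusted p = 0.000538)), with 21% of its exons overlapped on the other strand.

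**Figure D4:**
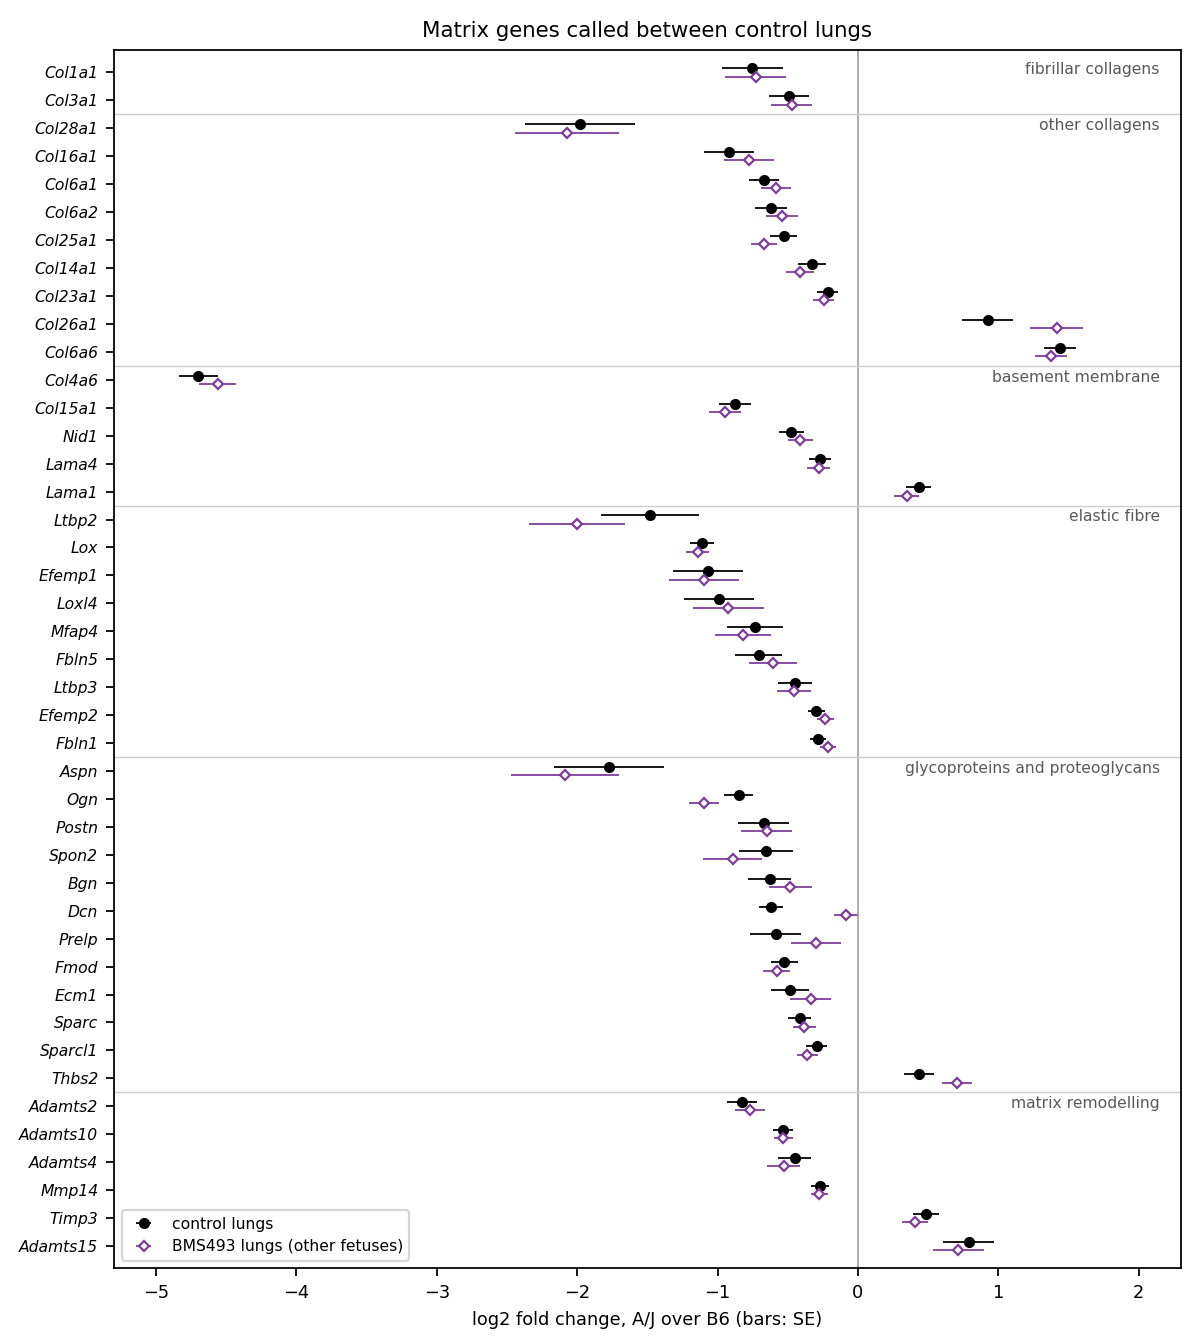
Log2 fold change of A/J over B6 with its SE for the matrix genes called in control lungs, for control (black) and BMS493 (purple, other fetuses) libraries. All but a few genes lie to the left of 0 in both, and Col4a6 is farthest at -4.70. Dcn is the gene at -0.62 in controls that is near 0 with BMS493, values that were not called to differ.

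Signalling genes were read by their place in each pathway, against the shares of all tested genes called higher (7.04%) and lower (9.84%). In the FGF pathway, which drives branching, 4 of 19 genes were higher in A/J and 3 lower. Without B6 replicate 2 only 1 was higher, and without B6 replicate 1 or A/J replicate 1, 2 or 3 there were 2. Of the 6 ligands, Fgf9, a signal of mesothelium and epithelium (9.27 against 6.69 CPM, 0.48 (SE 0.16, adjusted p = 0.0432)), and Fgf2 (18.2 against 12.9 CPM, 0.49 (SE 0.13, adjusted p = 0.0073)) were higher. Fgf7, a mesenchymal growth factor for epithelium, was lower (1.21 against 3.10 CPM, -1.33 (SE 0.25, adjusted p = 0.000474)), while the branching signal Fgf10 was not called (36.6 against 39.1 CPM, -0.09, adjusted p = 0.479). The receptor gene Fgfr3 read 66.03, 68.4, 69.4 and 59.7 CPM in A/J and 103, 108, 100.5 and 114 CPM in B6 and was lower (-0.69 (SE 0.10, adjusted p = 1.99e-05)). The response genes Etv4 (0.38, adjusted p = 0.0158) and Dusp6 (0.24, adjusted p = 0.0378) were higher, at small sizes. Calls were lost for Fgf9 without A/J replicate 2, 3 or 4 or B6 replicate 1 or 2 (adjusted p of up to 0.173), for Etv4 without A/J replicate 1 or B6 replicate 2 (up to 0.0515) and for Dusp6 without any 1 of 6 libraries, all but A/J replicate 4 and B6 replicate 4 (up to 0.183).

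Of 38 Wnt pathway genes 8 were called higher (7.04% of all tested genes) and 7 lower (9.84%), at a median of 0.06. The number higher was 4 without A/J replicate 1 or 2 or B6 replicate 2 and 5 without B6 replicate 3 or 4. Of the ligands, Wnt2b, which acts with Wnt2 in lung specification, was lower (11.9 against 29.2 CPM, -1.30 (SE 0.22, adjusted p = 0.00052)). Wnt5a, a noncanonical ligand of the distal lung, read 37.1, 36.1, 32.1 and 31.3 CPM in A/J and 59.1, 50.3, 56.4 and 54.3 CPM in B6 and was lower too (-0.69 (SE 0.11, adjusted p = 7.42e-05)), and Wnt11 was higher (0.48, adjusted p = 0.00824). The secreted enhancer Rspo2 was higher (0.58 (SE 0.18, adjusted p = 0.04)), a call lost whichever library was left out (adjusted p of up to 0.114), while the R-spondin receptor genes Lgr5 (3.75 against 6.38 CPM, -0.76 (SE 0.18, adjusted p = 0.00381)) and Lgr6 (-0.44, adjusted p = 0.0016) were lower. Lef1 (ENSMUSG00000027985, chromosome 3), a nuclear effector and target of the canonical pathway, read 47.7, 40.4, 45.6 and 46.6 CPM in A/J and 28.3, 29.3, 28.4 and 29.3 CPM in B6 (0.65 (SE 0.14, adjusted p = 0.00192)). Each A/J library was above each B6 library. The target Sp5 was higher as well (0.41, adjusted p = 0.0317), a call lost without A/J replicate 1 or 3 or B6 replicate 2 or 3 (adjusted p of up to 0.129), and Axin2, a widely used target, was not called (-0.01, adjusted p = 0.976).

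BMP genes had 3 of 24 higher and 5 lower, beside 7.04% and 9.84% of all tested genes. The ligand gene Bmp7 read 37.3, 39.2, 37.9 and 33.1 CPM in A/J and 20.1, 23.8, 22.6 and 24.1 CPM in B6 and was higher (0.70 (SE 0.10, adjusted p = 1.37e-05)), as were Gdf10 (14.97 against 8.08 CPM, 0.90 (SE 0.17, adjusted p = 0.000484)) and the ligand trap Fst, follistatin (3.29 against 1.64 CPM, 1.0 (SE 0.21, adjusted p = 0.00121)). Bmp3 was lower (29.9 against 49.99 CPM, -0.74 (SE 0.10, adjusted p = 1.22e-05)), and so was Acvrl1, the endothelial receptor for BMP9 (-0.60, adjusted p = 0.0129). Of 4 target genes Id4 (13.9 against 21.5 CPM, -0.63 (SE 0.12, adjusted p = 0.000343)) and Id3 (-0.31, adjusted p = 0.00442) were lower, and so was the inhibitor gene Smad7 (-0.30). The call of Smad7 was lost without A/J replicate 3 or 4 or B6 replicate 1, 3 or 4 (adjusted p of up to 0.175), and that of Acvrl1 without A/J replicate 4 (0.0508). Bmp4, the tip ligand, was not called (56.5 against 51.7 CPM, 0.13, adjusted p = 0.561).

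TGF-beta genes gave 3 higher and 2 lower of 22, where 16.9% of all tested genes were called, and without A/J replicate 2 the count was 2 higher and 4 lower. They included the ligand gene Tgfb3, which was lower (74.2 against 95.03 CPM, -0.36 (SE 0.07, adjusted p = 0.000813)), and the receptor genes Acvr2b (0.45 (SE 0.11, adjusted p = 0.00384)) and Tgfbr1 (0.27, adjusted p = 0.0016), which were higher. The ligand subunit gene Inhba was higher too (0.58 (SE 0.19, adjusted p = 0.0389)), a call lost without any 1 of 6 libraries, all but A/J replicate 4 and B6 replicate 2 (adjusted p of up to 0.139). Of 13 hedgehog genes, the coreceptor gene Gas1 was higher (58 against 45.5 CPM, 0.35 (SE 0.09, adjusted p = 0.00706)), and Cdon was lower at -0.21 with a call that was lost without A/J replicate 3 or 4 or B6 replicate 1, 3 or 4 (adjusted p of up to 0.118). The ligand gene Shh (53.98 against 55.1 CPM, -0.03, adjusted p = 0.851) and the target genes Gli1 (0.03) and Ptch1 (0.08) were not called.

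Of 17 Notch genes 5 were called, all lower, where 9.84% of all tested genes were called lower, and the median was -0.17. They were the ligand genes Dll1 (4.30 against 7.56 CPM, -0.81 (SE 0.18, adjusted p = 0.00197)) and Jag2 (-0.51, adjusted p = 0.00171), the glycosyltransferase gene Lfng that tunes ligand choice (21.4 against 31.1 CPM, -0.54 (SE 0.11, adjusted p = 0.0013)), and the targets Heyl and Nrarp. Heyl read 74.2, 64.4, 56.5 and 50.8 CPM in A/J and 93.02, 77.4, 98.4 and 92.6 CPM in B6 (-0.55 (SE 0.10, adjusted p = 0.000454)). Nrarp was at -0.74 (SE 0.18, adjusted p = 0.00384), with 77% of its windows shared. The 4 receptor genes had no call.

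Vessel growth factors and their receptors gave 6 lower and 1 higher of 15, beside 9.84% lower and 7.04% higher of all tested genes. The number lower was 4 without B6 replicate 3 and 5 without A/J replicate 4. Vegfd (ENSMUSG00000031380, chromosome X), a ligand strongly expressed in fetal lung mesenchyme, read 37.6, 37.1, 36.3 and 32.96 CPM in A/J and 65.9, 64.4, 65.5 and 68.98 CPM in B6 (-0.88 (SE 0.11, adjusted p = 1.48e-06)), with no overlap. Nrp1, a coreceptor for VEGF-A, was lower (97.7 against 132 CPM, -0.44 (SE 0.10, adjusted p = 0.00405)), and its relative Nrp2 was higher (126 against 95.2 CPM, 0.40 (SE 0.07, adjusted p = 0.000115)). Vegfa was not called (136 against 139 CPM, -0.03, adjusted p = 0.798). Of 7 PDGF genes, the ligands Pdgfa (28.4 against 42.4 CPM, -0.58 (SE 0.11, adjusted p = 0.000556)), which recruits myofibroblast precursors, and Pdgfb (42.5 against 59.5 CPM, -0.48 (SE 0.09, adjusted p = 0.000317)), which recruits pericytes, were lower, and the 3 receptor genes were not called.

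Of 19 retinoic acid genes 4 were called, all higher, at a median of 0.12. This number is close to the 17.4% called among all protein-coding genes, and with no filter, the replicate block, DESeq2 or only the 8 control libraries 2 more genes were called lower. Lrat (ENSMUSG00000028003, chromosome 3), which stores retinol as esters, read 18.2, 18.01, 14.7 and 15.1 CPM in A/J and 0.877, 1.40, 1.88 and 1.38 CPM in B6, so each A/J library was above every B6 library by several times the spread (3.57 (SE 0.21, adjusted p = 1.67e-12)). In the BMS493 fetuses the same gene was at 0.55 (adjusted p = 0.432), but its strain difference was not called to differ between control and BMS493 fetuses. Crabp2, which carries retinoic acid to its receptors, averaged 8.54 ± 1.57 against 4.15 ± 0.362 CPM (SD, n = 4, 1.04 (SE 0.26, adjusted p = 0.00632)). Rdh10, which makes retinal from retinol, averaged 42.8 ± 4.26 against 33.3 ± 2.98 CPM (0.36 (SE 0.10, adjusted p = 0.00904)), with overlapping libraries. The retinol uptake receptor gene Stra6 was higher at 0.72, a call lost without A/J replicate 2 or B6 replicate 1, 2 or 4 (adjusted p of up to 0.1002). None of the 6 receptor genes was called.

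Receptors that set airway tone had 2 lower and 1 higher call of 20, no larger a share than the 17.4% called among all protein-coding genes. Chrm2, the muscarinic receptor that inhibits acetylcholine release, was higher in A/J (10.9, 8.48, 6.69 and 11.2 CPM against 6.70, 4.09, 5.49 and 6.16 CPM, with overlap, 0.74 (SE 0.18, adjusted p = 0.00475)), a call lost with the stranded column (0.57, adjusted p = 0.0677). Chrm3, the receptor that contracts airway muscle, was not called (3.79 against 3.13 CPM, 0.27, adjusted p = 0.571). The prostaglandin E2 receptor gene Ptger3 was lower (3.22 against 8.39 CPM, -1.37 (SE 0.17, adjusted p = 8.71e-07)). Agtr2, an angiotensin receptor gene, was lower in controls (3.79 against 6.92 CPM, -0.86 (SE 0.20, adjusted p = 0.00372)) and at 0.00 (adjusted p = 0.995) in the BMS493 fetuses. Its strain difference was not called to differ between the 2 treatments.

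Guanylate-binding proteins, interferon-inducible GTPases of cell-autonomous immunity, were called in 7 of 12 cases, 6 higher and 1 lower, at a median of 0.62, where 7.04% of all tested genes were called higher and 9.84% lower. The lower call was Iigp1, an immunity-related GTPase outside the family (-0.64). The BMS493 fetuses had 2 higher and 1 lower call in this list, close to the 21.4% called there among protein-coding genes, at a median of -0.04. Gbp2 read 9.501, 9.65, 10.8 and 11.9 CPM in A/J and 2.01, 3.02, 2.42 and 2.49 CPM in B6 (2.06 (SE 0.18, adjusted p = 2.56e-09)). It was the 1 gene whose strain difference was called to differ between control and BMS493 fetuses (0.00706% of protein-coding genes), where the difference was -0.10 with BMS493. Gbp4 (2.97 against 0.889 CPM, 1.76 (SE 0.29, adjusted p = 7.15e-05)), Gbp5 (2.14 against 0.451 CPM, 2.20 (SE 0.43, adjusted p = 0.00061)), Gbp3 (1.46) and Gbp7 (0.64, a call lost without any 1 of 7 libraries, all but B6 replicate 3) were higher, and Gbp2b had 608 counts in A/J and 3 in B6. The wider set of interferon-stimulated genes had 2 higher and 1 lower call of 20, no larger a share than among all genes, at a median of 0.06. Ifi44 (2.04 against 0.555 CPM, 1.88 (SE 0.41, adjusted p = 0.00182)) and the signal transducer Stat2 (30.9 against 24.9 CPM, 0.31 (SE 0.08, adjusted p = 0.00714)) were higher.

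Antigen presentation genes were lower in A/J in 9 of 16 class I cases, at a median of -0.83, where 9.84% of all tested genes were lower. The strains carry different haplotypes of this region. Apart from the sum with its copies given for H2-T22, the part of read placement on the reference genome in these values was not tested. H2-D1, a classical class I heavy chain, read 5.35, 4.03, 3.69 and 2.72 CPM in A/J and 31.6, 38.01, 34.1 and 34.6 CPM in B6 (-3.12 (SE 0.16, adjusted p = 9.28e-13)). The nonclassical H2-T23 (0.264 against 3.21 CPM, -3.53 (SE 0.40, adjusted p = 3.65e-07)) and H2-T22 (2.61 against 20.2 CPM, -2.96 (SE 0.13, adjusted p = 2.91e-15)) were lower, and H2-Q6 was higher (2.12, adjusted p = 0.00366). H2-T22 shares 53.5% of its windows with 2 genes, and summed with them it stood at -1.50. Of these, H2-T10 averaged 5.44 CPM in A/J against 1.33 CPM in B6. B2m, the invariant light chain of class I on another chromosome, was lower as well (58.96 against 87.3 CPM, -0.57 (SE 0.14, adjusted p = 0.0111)), as were the peptide transporter genes Tap1 (-0.78) and Tap2 (-0.96). Of the 7 class II genes, the invariant chain Cd74 (1.02 against 2.63 CPM, -1.36 (SE 0.27, adjusted p = 0.00087)) and H2-Ab1 (5 counts in A/J and 62 in B6) were lower, and H2-DMa was higher (0.69 (SE 0.18, adjusted p = 0.00894)).

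Genes of fetal growth and developmental timing were higher in A/J in 6 of 13 cases and lower in 1, at a median of 0.20, beside 7.04% higher and 9.84% lower of all tested genes. Hmga2 (ENSMUSG00000056758, chromosome 10), a chromatin protein that is high in early fetal tissue and falls with maturation, read 187, 189.9, 161 and 247 CPM in A/J and 89.5, 96.2, 97.6 and 84.5 CPM in B6 (1.09 (SE 0.20, adjusted p = 0.00192)), with no overlap. Lin28b, which holds back let-7 microRNAs, read 3.52, 4.07, 4.42 and 4.99 CPM in A/J and 2.53, 2.89, 2.42 and 1.44 CPM in B6 (0.85 (SE 0.26, adjusted p = 0.0233)), and its call was lost without A/J replicate 4 (0.77, adjusted p = 0.0731) or B6 replicate 4 (0.69, adjusted p = 0.0905). The fetal RNA-binding protein gene Igf2bp1 averaged 150.0 against 108 CPM (0.48 (SE 0.12, adjusted p = 0.00991)), with Igf2bp2 at 0.47 and Igf2bp3 at 0.33. The imprinted Peg3 averaged 945 against 676 CPM (0.48 (SE 0.07, adjusted p = 5.23e-06)), and Igf1, a growth factor, was lower (-0.36, adjusted p = 0.0012).

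Cell cycle genes had a median of 0.03 and 2 small lower calls of 24, a share under the 9.84% of all tested genes, and with only the 8 control libraries 4 higher and 2 lower. Mki67, the proliferation marker, averaged 741 ± 60.6 against 739 ± 58.8 CPM (SD, n = 4, 0.00, adjusted p = 0.985), and Kif11, a spindle motor, was lower at -0.21 (adjusted p = 0.00442). The other call, of the cyclin gene Ccnb2 (-0.18, adjusted p = 0.0365), was lost without any 1 of 7 libraries, all but B6 replicate 2 (adjusted p of up to 0.0907). Of 11 mitochondrially encoded transcripts, mt-Co2 was called higher (0.75, adjusted p = 0.0324) with all of its windows shared, and the median was 0.44 with all 11 above 0. That call was lost without A/J replicate 3 or 4 or B6 replicate 1, 2 or 3 (adjusted p of up to 0.102). With only the 8 control libraries mt-Co2 was not called (adjusted p = 0.131) while 6 other transcripts were. The number called was 0 to 2 with 1 control library left out, and with BMS493 it was 0.

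The BMS493 libraries gave a reading in other fetuses of the same strains. There 3027 protein-coding genes were called (21.4%). Of the 2462 genes called in controls, 2437 (99.0%) had the same sign there and 1789 (72.7%) were called, all in the same direction. The 1789 made up 59.1% of the calls with BMS493. Per list, the calls with BMS493 were 16 of 23 lower for basement membrane genes and 13 of 22 for elastic fibre genes, where controls had 4 and 9. Without B6 BMS493 replicate 3 both lists had 9 lower, and in a fit of only the 8 control libraries the controls had 10 and 14. No difference between these counts was tested.

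Differences were spread over all chromosomes, from 12.8% of the genes tested on chromosome 16 to 23.5% on chromosome 13. Along the gene order of GENCODE M21, 270 runs of 50 neighbouring protein-coding genes held 16% of genes called at the median, with quartiles at 12% and 22%. The range was wide. In 23 runs at most 6% were called, and in 5 runs only 2%, among them the run from Kiss1r to Jsrp1 on chromosome 10 and the run from Alkbh8 to Muc16 on chromosome 9. In 3 runs at least 40% were called. These were the runs from Kcnf1 to Sypl on chromosome 12 (42%), from Pcdhb6 to Arhgap26 on chromosome 18 (42%) and from Gm13889 to Lgr4 on chromosome 2 (40%). Runs were chosen after their values were seen, and neighbouring genes share family members and copies.

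**Figure D5:**
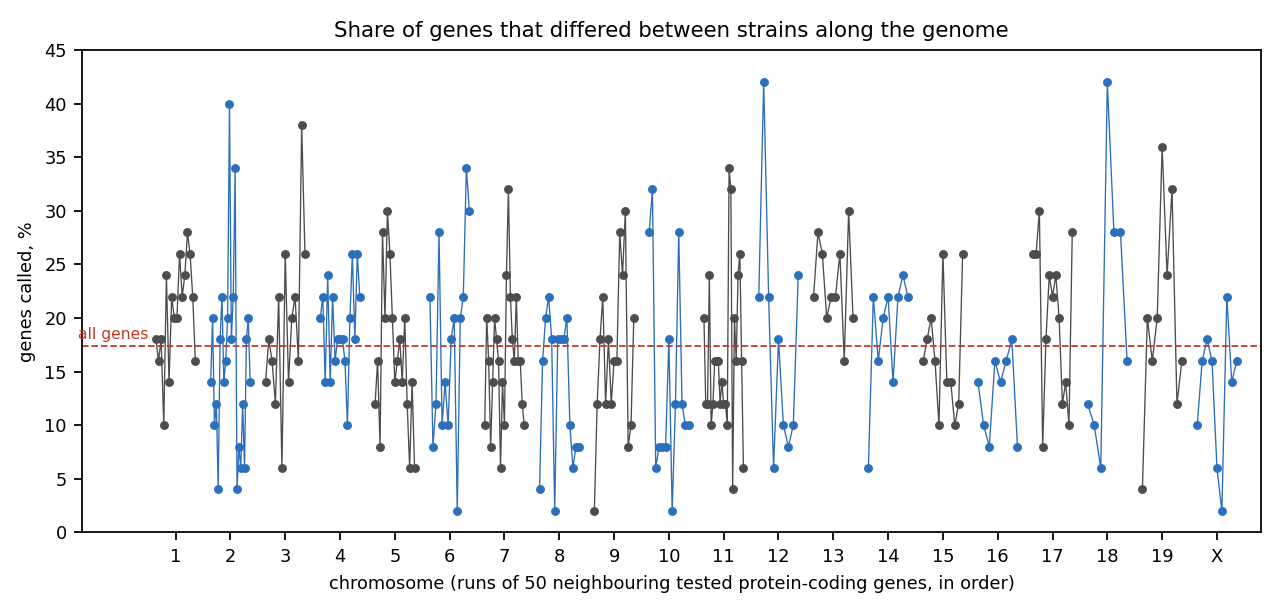
Share of genes called between A/J and B6 control lungs in each of 270 runs of 50 neighbouring tested protein-coding genes, in gene order within each chromosome. Runs range from 2% to 42% around a median of 16%.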

How the data were processed

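RNA of 16 whole fetal lungs was measured, and the 8 control libraries were compared. The authors deposited raw counts per gene for each library, and the submitters' processing notes name FastQC, cutadapt, STAR and the build GRCm39, with versions not given in the sources used here. Of the 3 count columns, the one regardless of strand was used, since the stranded columns held nearly equal counts. Of 57180 genes, 51933 were matched by identifier to GENCODE M21 (GRCm38) for symbols, gene types and chromosomes, and these held 98.9% of the counts. Because the builds differ, no coordinates are given. The 4 summary lines of each file were left out.

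The function filterByExpr (edgeR 4.0.16, R 4.3.3) kept 17276 genes, which were scaled with TMM. Counts per 1000000 (CPM) are TMM-scaled and given as mean ± SD over 4 libraries. A robust quasi-likelihood model, in which each group has its own coefficient, used the 16 libraries together (12 residual degrees of freedom). Every adjusted p is from this edgeR model, two-sided and adjusted over all genes by the Benjamini-Hochberg method, and a call is an adjusted p under 0.05. Library values were compared by exact permutation of 70 assignments.

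The text names 6 kinds of genes. They are the 12 highest and 12 lowest called fold changes among protein-coding genes without overlap and with at least 1 CPM in both strains, and the 8 of each with at least 50 CPM. They are also the 4 most extreme of each direction under 1 CPM in 1 strain, up to 4 called members per list with the largest absolute fold change, a panel of known strain variants, and the first 2 genes of each cell type list. Other members of the lists are named beside them, and a few genes are not reported here. Members and lists were chosen with earlier results of these data known.

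Shared sequence is the share of 50-base transcript windows that occur in another gene of M21. The read length was not given in the sources used here. Alternatives were RLE scaling, no filter, a mean of at least 1 CPM, only the 8 control libraries, a replicate block, the library set, a stranded column, protein-coding genes alone, DESeq2 1.42.0 and leaving out each control library. Data were simulated with 200 changed genes among 16969. In these edgeR called 66% of those changed 1.5-fold, 92% at 2-fold, 98% at 4-fold and 100% at 8-fold, and 5.32% of calls were unchanged genes. The changed genes were drawn from those above a floor on mean counts, so these shares do not cover genes with few counts. Libraries were simulated as independent, with the spread that the same model had fitted, so litters and errors in that spread were not tested.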

Additional observations from a re-analysis of the deposited data

Results flagged for a closer look

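Among 349 groups of 4 libraries of the named genes, 26 held 1 library far from the other 3, where its gap to the nearest library, as a share of the whole range, passed Dixon's 95% critical value. Chance alone gives about 1 in 20 such groups. No cause was tested for any of them.

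A/J replicate 4 was low in 4 genes of matrix, Notch and PDGF signalling. Col16a1 stood at 58.0 CPM there against 96.0 to 98.7 CPM in the other A/J libraries (gap share 0.932), Lfng at 18.7 against 22.1 to 22.5 CPM (0.901), Col15a1 at 81.5 against 92.2 to 93.6 CPM (0.881) and Pdgfb at 38.3 against 43.4 to 44.1 CPM (0.875). The same library was low in Gm12666, at 3.91 against 4.76 to 4.83 CPM (0.928), and high in Hapln1, at 54.6 against 48.8 to 49.6 CPM (0.864). All 6 genes were called under every alternative, also without this library.

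In the other A/J libraries, replicate 1 was high in Rgs4 (19.1 against 15.2 to 15.8 CPM, 0.843) and Lamp3 (3.95 against 2.91 to 3.06 CPM, 0.857), and it alone had a count of H2-Q2 (gap share 1). Replicate 2 was high in Meox2 (47.1 against 41.3 to 42.2 CPM, 0.848) and Ddx58 (9.83 against 8.01 to 8.24 CPM, 0.870) and low in H2-T22 (1.90 against 2.78 to 2.91 CPM, 0.866). Replicate 3 was high in Rpl26 (35.3 against 15.1 to 18.4 CPM, 0.838) and low in Cald1 (482 against 537 to 545 CPM, 0.870).

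In B6, replicate 1 stood out in the liver gene Alb, at 5.21 against 0.593 to 0.868 CPM (0.941), and without it the strain difference in Alb was -1.86 (adjusted p = 0.104). The same library was low in Cnmd (4.49 against 5.89 to 5.95 CPM, 0.956). Replicate 2 was low in Id2 (79.8 against 113 to 120.1 CPM, 0.8294), and it alone had a count of Ifi202b (gap share 1). Replicate 3 was high in Stra6 (6.58 against 5.88 to 5.91 CPM, 0.958), Cd74 (3.02 against 2.47 to 2.52 CPM, 0.917) and Tuba1c (109 against 98.1 to 99.7 CPM, 0.854) and low in Acta2 (556 against 590.2 to 594 CPM, 0.907) and Crabp2 (3.61 against 4.26 to 4.38 CPM, 0.844). Replicate 4 was high in Gm11361 (11.2 against 8.39 to 8.61 CPM, 0.921), Krt4 (1.44 against 0.516 to 0.643 CPM, 0.863) and Col28a1 (3.02 against 1.90 to 2.06 CPM, 0.855).

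Gbp2 was the 1 gene whose strain difference was called to differ between control and BMS493 fetuses, with an interaction of 2.16 on the log2 scale.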

How the results depend on the processing

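The 2916 calls over all genes (1216 higher and 1700 lower in A/J) stayed within 1.5 times that number under each alternative planned, from 2376 with a stranded column to 3707 with only the 8 control libraries (3301 with DESeq2), and leaving out 1 control library gave 2296 to 2795 (919 to 1231 higher, 1340 to 1564 lower). Within the libraries numbered 9 to 16 alone, a fit chosen after seeing the data, 1368 genes were called (498 higher and 870 lower), against 3142 within those numbered 1 to 8. Both have 2 libraries per strain. The 156 named genes that were called had the same sign in both library sets. Of these, 127 were called under each of the 18 alternatives, 29 lost the call under at least 1, and none reversed. Same-numbered A/J and B6 libraries did not deviate together (r of -0.147 to 0.0148 across genes), so the numbers do not pair them. With the replicate block 2979 genes were called (1215 higher and 1764 lower), and of the named genes C1qb, Alb and Krt4 lost their calls and none gained one. Of the 185 list members that were called, 135 were called whichever control library was left out and 50 lost the call at least once. List counts moved in both directions. Without A/J replicate 4, glycoproteins and proteoglycans went from 11 to 7 lower, fibrillar collagens fell from 2 to 0 without that library, A/J replicate 2 or any 1 of the B6 libraries, and with only the 8 control libraries endothelium went from 12 to 19 lower and basement membrane from 4 to 10 lower. Without B6 BMS493 replicate 3, basement membrane genes lower with BMS493 went from 16 to 9. Calls from few counts, such as those of Nnt and Gata1, were among those lost.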
